A study of Mus musculus with 12 samples.

Results

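Chronic restraint stress (CRS) was compared with handling alone in the medial prefrontal cortex of mice of 2 inbred strains, and the description turns on genes whose difference had the same direction in both. All 12 of the 12 libraries of the series entered the comparison, 6 from CRS mice and 6 from controls, with strain as a term, so that an effect is the average of the shift within C57BL/6JmsSlc (B6) and the shift within BALB/cCrSlc (BALB/c). Each of the 4 groups (B6 control, B6 CRS, BALB/c control, BALB/c CRS) held 3 mice aged 9 to 10 weeks. CRS mice, called stressed mice below, had been held in tubes for 6 h on each of 21 days in a row, and controls had been handled with no restraint. All 12 mice went through behavioural tests before a 1.5 mm punch of tissue was taken. Sex, hour of collection and the delay from the last restraint to death are not in the labels. Expression is given as TPM, the length-corrected share of a gene among all transcripts, which sums to the same total in each library and keeps no read depth, so precision rests on the spread between mice alone.

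The medial prefrontal cortex takes part in the control of fear, mood and the hormonal stress response, and repeated restraint is a common rodent model of lasting stress. Stress acts there through glucocorticoid hormones, which bind receptors that switch on target genes, and through neuronal firing, which within minutes induces immediate early genes such as Fos and Egr1 and, after them, effectors such as Arc. Fabp7, a carrier of long-chain fatty acids, is best known from radial glia of the developing brain and from astrocytes of the adult one.

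Excitatory neuron markers, which define cortex, summed to between 1959 and 4514 TPM in the 12 libraries, and 3 other features of the libraries touch the results. In BALB/c CRS replicate 12 the 18S ribosomal RNA gene took 3.97% of TPM, against 0.0307% to 0.169% in the other 11 libraries, and results that rest on this library are given with and without it. The summed level of 10 striatal neuron markers, genes of a region near the prefrontal cortex, ran from 233 to 2995 TPM in B6 controls, from 1048 to 2460 TPM in B6 CRS libraries, from 136 to 421 TPM in BALB/c controls and from 154 to 203 TPM in BALB/c CRS libraries. The 11 myelin markers summed to between 495 and 9994 TPM over the 12 libraries. In bulk tissue, fewer cells of a type and less RNA per cell cannot be told apart.

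Of 16423 genes tested, Fabp7 alone passed an adjusted p-value of 0.05 in the comparison with strain as a term (limma with Benjamini-Hochberg adjustment), which is 0.00609% of the genes. Without adjustment, 909 genes had a p-value under 0.05. Of these, 642 (3.91% of the genes tested) were higher after CRS and 267 (1.63%) were lower. The log2 change over all tested genes had a median of 0.02, and 58.0% of the genes had a change above 0. In 55.8% of the genes the change had the same sign in both strains, above 0 in 34.3% and below 0 in 21.6%. These shares moved with the settings. Under median-of-ratios scaling 3.43% of the genes were higher and 3.5% lower at an unadjusted p under 0.05. With BALB/c CRS replicate 12 left out the shares were 7.05% and 1.32%, and the median change of all genes was 0.06. A stricter test, which asks for a move in the same direction in each strain by taking the larger of the p-values of the strains, called 0 genes after adjustment (limma). Without adjustment 37 genes had a p-value under 0.05 by that test, 26 of them higher and 11 lower after CRS. The difference between the CRS effects of the strains was tested as an interaction, which called 0 genes (smallest adjusted p 0.442, limma), while 443 genes had an unadjusted p-value under 0.05.

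A second description used the libraries themselves. In 95 genes the 3 CRS libraries lay all on the same side of the 3 controls in B6 and again, on the same side, in BALB/c. The CRS libraries were higher in 64 of them (0.39% of the genes tested) and lower in 31 (0.189%). Another 44 genes (0.268%) had no overlap in either strain but in opposite directions, 11 higher after CRS in B6 and 33 higher after CRS in BALB/c. The 95 genes are 6.94% of the 1368 genes with no overlap in B6 and 7.83% of the 1213 in BALB/c. The split into higher and lower moved with the scaling. With median-of-ratios scaling in place of plain TPM, 60 genes lay higher and 77 lower in both strains, and 49 of the 95 were kept, 27 higher and 22 lower. Without BALB/c CRS replicate 12 the numbers were 270 higher and 43 lower, from groups of which 1 had 2 libraries. By annotation 55 of the 64 and 26 of the 31 genes were protein-coding. In the plot of the effect in B6 against that in BALB/c, Fabp7 lies at the upper right.

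**Figure D1:**
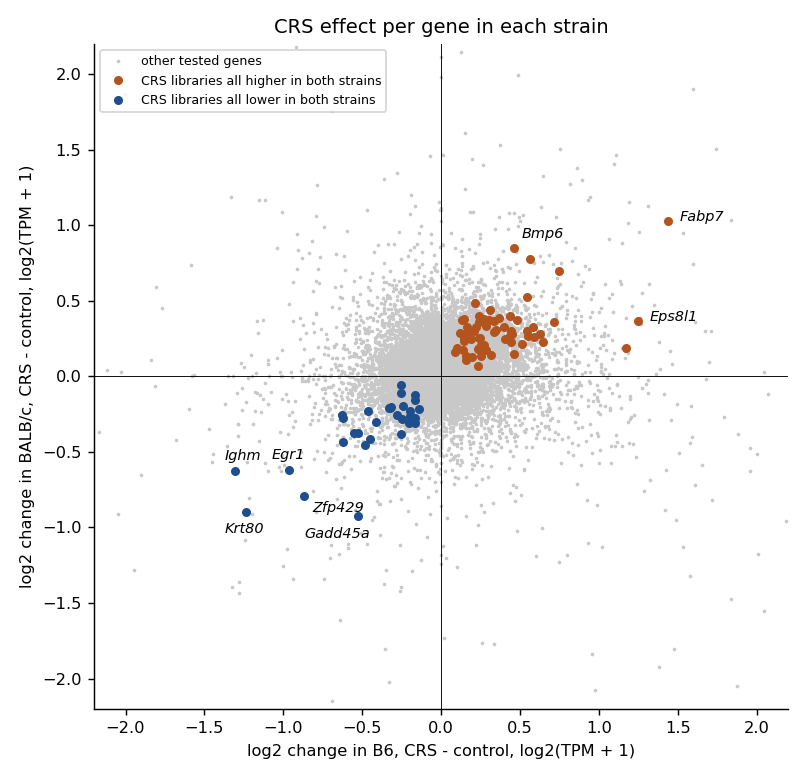
Log2 change after CRS in B6 (horizontal) and in BALB/c (vertical) on the log2(TPM + 1) scale, 1 point per tested gene. Orange points are the 64 genes whose 3 CRS libraries all lay above the 3 controls in both strains, and blue points the 31 that lay below, while 21 genes, 1 of them among the 64, fall outside the axes.

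Fabp7 (chr10:57784881-57788450 in GRCm38, plus strand, GENCODE M21) was the gene that rose. Its levels were 35.5, 30.3 and 19.5 TPM in control B6 mice and 69.8, 74.0 and 87.0 TPM in stressed B6 mice. In BALB/c they were 39.6, 44.8 and 46.9 TPM in controls and 86.8, 83.2 and 100.9 TPM in CRS mice. The lowest CRS library of either strain lay above the highest control of both. The ratio of mean TPM was 2.71 in B6 and 2.06 in BALB/c, and the log2 change with strain as a term was 1.23 (SE 0.14, 95% interval 0.94 to 1.53, adjusted p 0.00942, limma). By strain the log2 change was 1.44 in B6 and 1.03 in BALB/c, a difference of -0.41 with an interval of -0.98 to 0.15 (unadjusted interaction p 0.137, limma). Most of the TPM lay in 1 of the 2 rows that carry the name Fabp7 in the deposited table. That row ran from 19 to 46.2 TPM in controls and from 68.9 to 96.3 TPM in CRS mice. The other row was higher in BALB/c too, at 0.80, 0.72 and 0.68 TPM in controls and 2.17, 2.36 and 4.53 TPM in CRS mice. In B6 the groups of that row overlapped, at 0.96, 0 and 0.52 TPM in controls and 0.87, 0.40 and 2.72 TPM in CRS mice. The log2 change of Fabp7 with median-of-ratios scaling was 1.20, with an adjusted p of 0.026 (limma). The call was lost with no filter on low values (adjusted p 0.0672), without BALB/c control replicate 5 (0.052) and without BALB/c CRS replicate 15 (0.0522, all limma), while the log2 change stayed between 1.1 and 1.29 over all libraries left out in turn. The promoter is shown because Fabp7 is the only gene called. It is the 250 bases before the RefSeq start (GRCm38.p6, chr10:57784673-57784922, plus strand), and it has no capitals because none of the 6 motifs searched (the cAMP response element and its core, the CArG box, the Egr site, and the glucocorticoid and endoplasmic reticulum stress response elements) is in this window.
Fabp7 promoter: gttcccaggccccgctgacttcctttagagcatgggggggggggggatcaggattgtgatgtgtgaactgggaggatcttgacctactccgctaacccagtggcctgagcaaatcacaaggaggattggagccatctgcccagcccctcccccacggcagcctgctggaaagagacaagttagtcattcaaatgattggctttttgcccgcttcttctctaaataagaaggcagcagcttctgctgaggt

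No other carrier of fatty acids passed the test. Of 21 tested genes of fatty acid binding and brain lipid transport, Fabp7 was the only one with an unadjusted p under 0.05, and the median log2 change of the list was 0.05, against 0.02 over all tested genes. Fabp5, the carrier of epidermal type, had a log2 change of 0.05, and Fabp3, the carrier of heart type, one of -0.09. Fads1 and Fads2, desaturases of polyunsaturated fatty acids, had changes of 0.17 and 0.15, and Apoe, the main lipoprotein of astrocytes, one of 0.14 (unadjusted p 0.0606, 0.141 and 0.105, limma). Without BALB/c CRS replicate 12 the list held 6 genes with an unadjusted p under 0.05, all higher, in place of 1, while the share of all genes that were higher at that level went from 3.91% to 7.05%.

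Other genes that mark radial glia and progenitors were mostly higher after CRS, without passing the adjusted test. Of 12 tested, 10 had a positive change in both strains, against 34.3% of all genes. Of the 12, 3 had an unadjusted p under 0.05, all higher (Vim, Sox9 and Hes5), against 3.91% of all genes. The list median was 0.20 (0.32 in B6, 0.16 in BALB/c). In B6 the list summed to 655.8, 657 and 350.1 TPM in control replicates 2, 3 and 9, and to 671 to 694.3 TPM in CRS mice. Control replicate 9 thus lay far below all other B6 libraries. In BALB/c the sums overlapped, at 344.3 to 379.5 TPM in controls and 365.8 to 475.6 TPM in CRS mice. Vim, the intermediate filament of immature and reactive glia, was at 44.8, 44.6 and 18.5 TPM in control B6 mice and at 59.3, 59.2 and 57.0 TPM in stressed B6 mice. In BALB/c, Vim was at 20.9, 33.1 and 21.4 TPM in controls and at 32.8, 38.6 and 37.7 TPM in CRS mice. The B6 groups did not overlap for Vim, and in BALB/c CRS replicate 12 lay just under the highest control (log2 change 0.67, SE 0.19, adjusted p 0.892, limma). Sox9, a transcription factor of glial fate, had a log2 change of 0.30, and Hes5, a target of Notch signalling, one of 0.44 (both adjusted p 0.892, limma). In BALB/c, Hes5 was at 31.7 TPM in CRS replicate 12 but at 17.5 and 18.5 TPM in replicates 13 and 15, within the range of controls (16.8 to 19.8 TPM). Without replicate 12 the list held 5 members with an unadjusted p under 0.05, all higher, against 7.05% of all genes, and 10 of 12 were higher in both strains, against 40.2%. Under median-of-ratios scaling 9 of 12 were higher in both, against 27.6% of all genes. Of 15 astrocyte markers tested, 8 were higher and 4 lower in both strains, none had an unadjusted p under 0.05 in the higher direction, and the median was 0.08. S100b, a calcium-binding protein of astrocytes, was lower (log2 change -0.24, unadjusted p 0.0358, limma). The summed astrocyte markers ran from 2884 to 3201 TPM in B6 controls and from 2777 to 3071 TPM in stressed B6 mice, and from 2246 to 2457 TPM and from 2073 to 2573 TPM in the BALB/c groups, so that both pairs of groups overlapped.

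**Figure D2:**
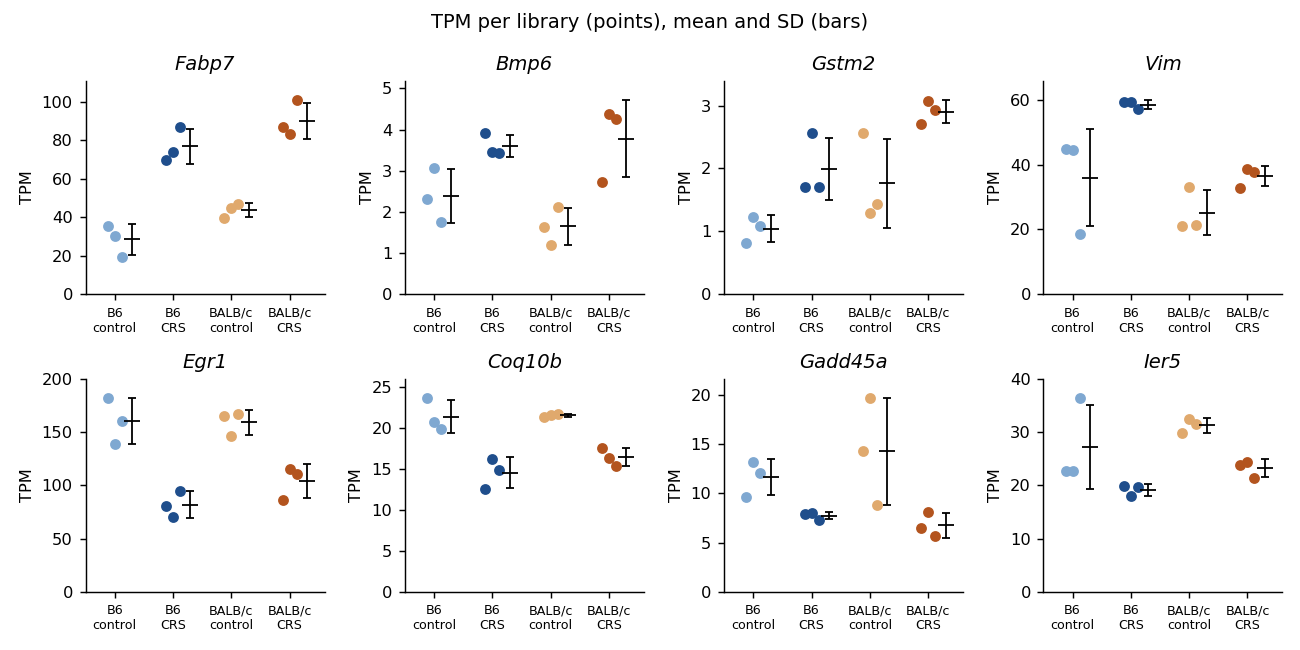
TPM of 8 genes in each of the 12 libraries (points, 3 per group), with the mean and SD of each group beside them; each vertical axis starts at 0. Fabp7 lies between 19.5 and 46.9 TPM in controls and between 69.8 and 100.9 TPM in CRS mice, and Egr1 between 138.7 and 181.9 TPM in controls and between 70.3 and 115.6 TPM in CRS mice.

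Egr1, an immediate early transcription factor used as a marker of neuronal activity, had the lowest p-value after Fabp7. It was at 181.9, 138.7 and 160.6 TPM in control B6 mice and at 80.6, 70.3 and 94.8 TPM in stressed B6 mice. In BALB/c it was at 165.0, 146.0 and 167.5 TPM in controls and at 86.0, 115.6 and 110.5 TPM in CRS mice. Every CRS library of either strain lay below every control, and both rows named Egr1 in the deposited table were lower. The log2 change was -0.79 (SE 0.11, 95% interval -1.03 to -0.55), with an adjusted p of 0.0566 (limma), just over the threshold. It passed with median-of-ratios scaling, at an adjusted p of 0.00892 (limma), and under 4 other settings that kept all libraries. Among those was a replicate block, whose numbers mark different mice. Egr1 did not pass with no filter on low values (adjusted p 0.261) or with eBayes without trend (0.167). Nor did it with a striatal (0.11) or myelin score (0.0953) as a covariate (all limma). When each library was left out in turn, the adjusted p ran from 0.0457 to 0.244 (limma) and the change lay between -0.85 and -0.73. The log2 change was -0.96 in B6 and -0.62 in BALB/c, and the difference between the strains had an interval of -0.11 to 0.79.

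Of 21 immediate early transcription factors tested, Egr1 included, 19 had a negative change in both strains, against 21.6% of all genes, while Npas4 (0.34) and Ier2 (0.004) had changes above 0 in BALB/c. None of the 21 passed after adjustment (limma). Of these 21, 11 had an unadjusted p under 0.05, all lower, against 1.63% of all genes, and the list median was -0.40. By strain the median was -0.65 in B6 and -0.26 in BALB/c, and the difference between these medians was not tested. The BALB/c part of this rested on 1 library. Without BALB/c CRS replicate 12 the BALB/c median was 0.01, 10 of 21 genes were lower in both strains (13.6% of all genes), and 7 were lower at an unadjusted p under 0.05 (1.32% of all genes). That library had the lowest summed level of these genes in its group, 401.0 TPM against 643.6 and 594.1 TPM in replicates 13 and 15, with BALB/c controls between 540.7 and 815.7 TPM. In B6, controls ran from 612.0 to 823.8 TPM and CRS mice from 340.7 to 478.7 TPM, with no overlap. The part of the 18S share of that library in this was not tested. Under median-of-ratios scaling, 15 of 21 had an unadjusted p under 0.05, all lower, against 3.5% of all genes, 20 were lower in both strains, against 29.8%, and the median was -0.43.

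Ier5, an immediate early gene tied to the heat shock response, shared with Egr1 the lack of overlap in both strains. It was at 22.8, 22.7 and 36.4 TPM in control B6 mice and at 19.9, 17.9 and 19.7 TPM in stressed B6 mice, and at 29.8, 32.5 and 31.6 TPM in BALB/c controls and 23.9, 24.5 and 21.4 TPM in stressed BALB/c mice. Its log2 change was -0.43 (SE 0.11, adjusted p 0.892, limma), or -0.45 without BALB/c CRS replicate 12. It stayed without overlap under median-of-ratios scaling. Nr4a3, an orphan nuclear receptor induced by firing, had a log2 change of -0.89 in B6 and -0.50 in BALB/c. BALB/c CRS replicate 15, at 12.4 TPM, lay above the lowest control at 12.1 TPM. Egr2, a zinc finger factor of the Egr1 family, was at 16.9, 10.1 and 4.67 TPM in control B6 mice and at 2.96, 2.13 and 3.44 TPM in stressed B6 mice. In BALB/c the Egr2 groups overlapped, at 13.0, 5.63 and 9.88 TPM in controls and 3.44, 7.83 and 6.96 TPM in CRS mice. Fos, singled out here after its values were seen, had a change of -1.68 in B6 and -0.42 in BALB/c.

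Among 25 activity-induced effectors and feedback genes, 8 had an unadjusted p under 0.05, all lower, against 1.63% of all genes, the median was -0.26, and none passed after adjustment (limma). The BALB/c median was -0.08, and 0.04 without BALB/c CRS replicate 12, against -0.33 in B6. Gadd45a, a stress sensor that acts in DNA repair and demethylation, was the member with no overlap in either strain. It was at 9.66, 13.2 and 12.1 TPM in control B6 mice, 7.91, 8 and 7.31 TPM in stressed B6 mice, 14.3, 19.7 and 8.83 TPM in BALB/c controls and 6.46, 8.09 and 5.67 TPM in stressed BALB/c mice. The log2 change of Gadd45a was -0.73 (SE 0.17), larger in size in BALB/c (-0.93) than in B6 (-0.53), with an interval of the difference that spans 0 (-1.11 to 0.31). Dusp6, a phosphatase that switches off ERK signalling, had a log2 change of -0.53, and its groups overlapped in both strains, though not under median-of-ratios scaling. Arc, which removes glutamate receptors from synapses, was at 126.8, 93.6 and 92.7 TPM in control B6 mice and at 41.1, 26.5 and 45.1 TPM in stressed B6 mice. In BALB/c, Arc was at 136.5, 63.8 and 49.3 TPM in controls and at 43.0, 76.9 and 62.8 TPM in CRS mice, which overlap. The change in Arc was -1.47 in B6 and -0.35 in BALB/c (unadjusted interaction p 0.0361, limma). Sertad1, a cell cycle regulator, had a change of -0.60 in B6 and -0.08 in BALB/c (unadjusted interaction p 0.00538, limma). The plot of the changes by strain shows all members of both lists.

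**Figure D3:**
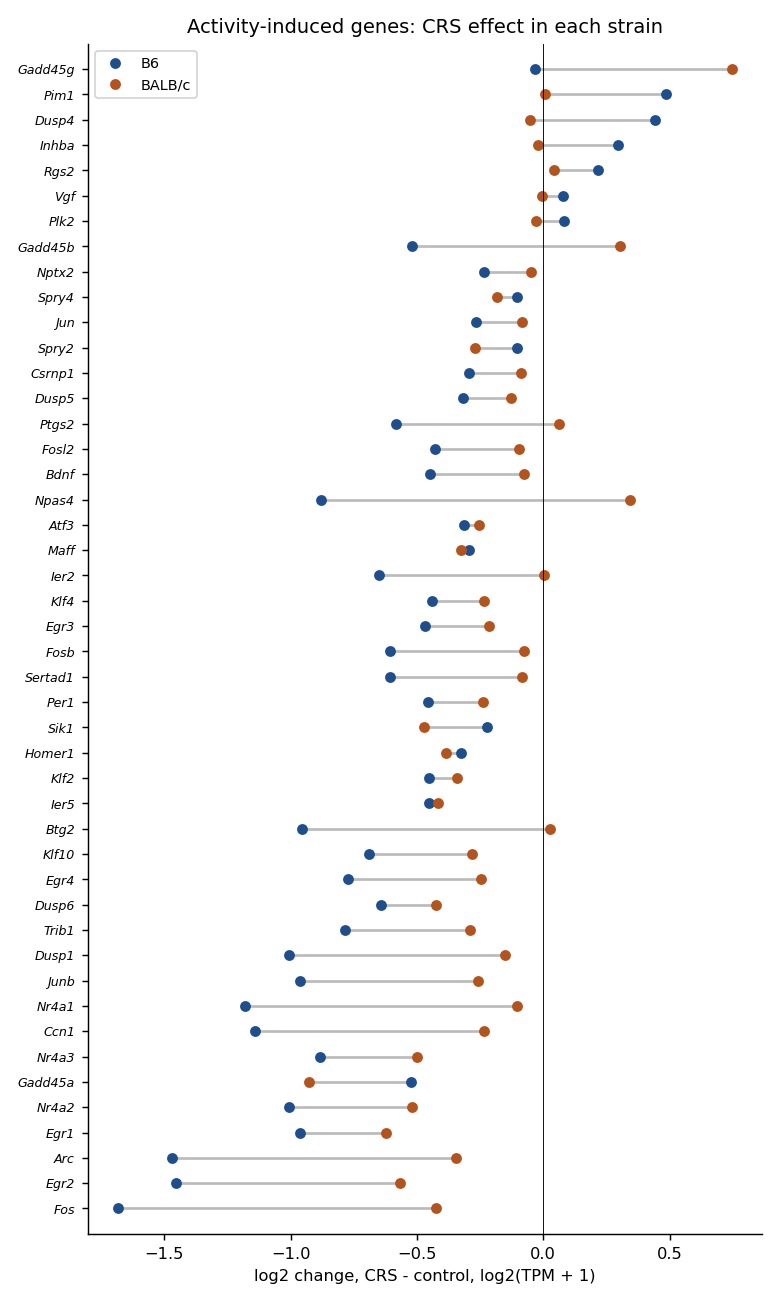
Log2 change after CRS, on the log2(TPM + 1) scale, of the 46 immediate early and activity-induced genes in B6 (blue) and BALB/c (orange), with a line joining the strains, ordered by the change with strain as a term. Egr1, Ier5 and Gadd45a lie to the left of 0 in both strains, while Arc and Fos lie farther left in B6 than in BALB/c.

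The promoters of many activity-induced genes hold sites for CREB, the factor that binds the cAMP response element after calcium entry. The core of that element, TGACG on either strand, was searched in the 250 bases before the RefSeq start (it also lies within the full element TGACGTCA, which was searched as a motif of its own). It occurred in 29.6% of the 11510 tested genes with a promoter in the table, in 14 of 17 immediate early genes (82.4%) and in 9 of 18 effectors (50%). Of the 20 lower genes without overlap that had a promoter, 4 held it (20%), as did 13 of 50 higher ones (26.0%). The CArG box, bound by serum response factor, was in 1 of 17 immediate early promoters, and the Egr site, GCGTGGGCG, in 1 of 17. Coq10b and Nr4a3 are shown because each was lower in both strains and holds the core 4 times, the former without belonging to the list. Nr4a1 (-1.18 in B6, -0.10 in BALB/c) holds the core 4 times as well and is not shown. Each TGACG or its reverse complement CGTCA is in capitals. Coq10b lies at chr1:55052520-55052769 and Nr4a3 at chr4:48045055-48045304, both on the plus strand of GRCm38.p6. The GENCODE M21 start of Nr4a3, 48045153, falls inside its window. A match is a description of letters and not a measured site.
Coq10b promoter: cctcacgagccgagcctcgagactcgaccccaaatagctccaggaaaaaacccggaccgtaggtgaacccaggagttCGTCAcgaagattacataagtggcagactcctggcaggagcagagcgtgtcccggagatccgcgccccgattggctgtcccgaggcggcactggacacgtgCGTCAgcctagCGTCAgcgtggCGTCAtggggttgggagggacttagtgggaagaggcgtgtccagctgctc
Nr4a3 promoter: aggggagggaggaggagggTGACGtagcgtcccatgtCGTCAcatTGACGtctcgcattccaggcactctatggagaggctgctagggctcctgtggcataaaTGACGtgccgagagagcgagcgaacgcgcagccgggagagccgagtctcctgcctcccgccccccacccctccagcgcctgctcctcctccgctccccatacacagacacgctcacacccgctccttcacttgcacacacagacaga

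Coq10b, which encodes a protein that binds coenzyme Q in mitochondria, had the third lowest p-value. Its levels were 23.6, 20.7 and 19.9 TPM in control B6 mice and 12.5, 16.2 and 14.9 TPM in stressed B6 mice, and 21.3, 21.6 and 21.7 TPM in BALB/c controls and 17.5, 16.4 and 15.4 TPM in stressed BALB/c mice. Every CRS library was below every control of both strains. The log2 change was -0.45 (SE 0.08, adjusted p 0.528, limma), with -0.53 in B6 and -0.37 in BALB/c. A gene on the other strand, E330011M16Rik, overlaps its exons. The libraries were stranded, but whether quantification used strand is not given in the sources used here, and the same limit holds for Gadd45a, Bmp6, Ctu2, Iqgap1, Traf7, Zfp429, Aktip, Mt2, Sult1a1, Nr3c2, Hes5, Nr1d1, Hsp90b1, Manf, Pdia3, Snhg3, Igf2 and Gm23238.

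The remaining named genes that were lower without overlap in either strain had log2 changes from -0.97 to -0.21, and none passed after adjustment (limma). Ighm, the constant region of immunoglobulin M and a marker of B cells and plasma cells, was at 13.1, 17.4 and 54.8 TPM in control B6 mice, 11.6, 8.37 and 7.08 TPM in stressed B6 mice, 9.31, 10.0 and 6.97 TPM in BALB/c controls and 5.95, 4.58 and 5.32 TPM in stressed BALB/c mice. Red blood cell genes were lower as well in the median, with a log2 change of -0.76 over 4 globin genes (none with an unadjusted p under 0.05), and their sum in stressed BALB/c mice was 4.34 to 40.1 TPM against 12.0 to 38.6 TPM in controls. Without BALB/c CRS replicate 12, which held the 40.1 TPM, the globin median was -1.12. In that setting 3 of the 4 were lower at an unadjusted p under 0.05, against 1.32% of all genes. The part of blood in the Ighm values was not tested. P4ha1, a subunit of the enzyme that hydroxylates collagen prolines, was at 28.4 to 33.0 TPM in control B6 mice and 22.4 to 24.7 TPM in stressed B6 mice, and at 24.6 to 27.7 TPM and 20.2 to 23.9 TPM in the BALB/c groups. Slco1a4, a transporter of the blood-brain barrier, was lower by a log2 change of -0.24, while the 13 endothelial and pericyte markers it belongs to had a median of 0.09. Zfp429 (a zinc finger gene, -0.83), Nat8f3 (an acetyltransferase of the Nat8 family, -0.45), Rbm41 (an RNA-binding protein, -0.32) and Aktip (a protein of vesicle transport and telomeres, -0.21) complete the group. Under median-of-ratios scaling Slco1a4 and Aktip no longer lacked overlap in both strains.

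Of the 12 named genes that were higher without overlap in either strain, those after Fabp7 had log2 changes from 0.23 to 0.66 and adjusted p-values of 0.892 (limma). Bmp6, a secreted growth factor of the TGF-beta family, was at 2.31, 3.06 and 1.76 TPM in control B6 mice and at 3.92, 3.46 and 3.43 TPM in stressed B6 mice. In BALB/c, Bmp6 was at 1.64, 1.20 and 2.11 TPM in controls and at 2.71, 4.38 and 4.25 TPM in CRS mice, a ratio of means of 2.29 against 1.52 in B6. The difference between its log2 changes by strain had an interval of -0.24 to 1.01. Ndst2, an enzyme of heparan sulfate synthesis, was at 5.66, 6.91 and 6.00 TPM in control B6 mice and at 10.4, 9.75 and 9.05 TPM in stressed B6 mice, and at 6.62, 7.29 and 6.34 TPM in BALB/c controls and at 8.23, 7.72 and 10.3 TPM in stressed BALB/c mice. Its groups thus lay farther apart in B6, though the difference between its log2 changes by strain had an interval of -0.67 to 0.16. Gstm2, a glutathione transferase, was at 0.81 to 1.23 TPM in control B6 mice and 1.70 to 2.56 TPM in stressed B6 mice, and at 1.29 to 2.57 TPM and 2.70 to 3.06 TPM in the BALB/c groups. Iqgap1, a scaffold of the actin skeleton, had a log2 change of 0.35, and Pkp2, a protein of desmosomes, one of 0.42. Ctu2, an enzyme of tRNA thiolation (0.43), Zfp414 (a zinc finger gene, 0.35), Traf7 (an adaptor with ubiquitin ligase activity, 0.25), Pgap2 (a maturation factor of GPI anchors, 0.32), Hnrnpdl (a splicing factor, 0.23) and Pskh1 (a protein kinase, 0.31) make up the rest. Under median-of-ratios scaling Ndst2, Ctu2 and Hnrnpdl overlapped in at least 1 strain, and the others of these 12 did not.

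Glucocorticoid response genes were split in direction. Of 21 tested, 2 were higher and 2 lower at an unadjusted p under 0.05, against 3.91% and 1.63% of all genes. None passed after adjustment (limma), and the median was -0.03. The counts higher and lower were 2 and 5 under median-of-ratios scaling (3.43% and 3.5% of all genes). Without BALB/c CRS replicate 12 they were 3 and 1 (7.05% and 1.32% of all genes). Tsc22d3, which encodes the anti-inflammatory protein GILZ, was at 69.2, 54.3 and 65.7 TPM in control B6 mice and at 39.9, 44.9 and 43.2 TPM in stressed B6 mice. In BALB/c, Tsc22d3 was at 38.8, 36.3 and 28.5 TPM in controls and 24.1, 29.1 and 25.5 TPM in CRS mice, where replicate 13 lay above the lowest control. Its log2 change was -0.46 (SE 0.09, adjusted p 0.892, limma). Fkbp5, the chaperone that dampens the glucocorticoid receptor, went the other way, with 0.55 in B6 and 0.37 in BALB/c. It was at 14.8, 11.7 and 13.2 TPM in control B6 mice and at 18.2, 15.5 and 27.2 TPM in stressed B6 mice, and at 11.9, 10.97 and 7.85 TPM in BALB/c controls and at 9.89, 13.7 and 17.3 TPM in stressed BALB/c mice. Mt2, a metallothionein that binds zinc, had a log2 change of 0.49, and Sult1a1, a sulfotransferase, one of -0.44, with -0.80 in BALB/c and -0.08 in B6 (unadjusted interaction p 0.0414, limma). The glucocorticoid response element, searched as ACA and TGT separated by 3 bases with G and C placed 1 base farther out, which reads the same on both strands, was in 3 of 17 promoters of the list (17.6%) and in 0.3% of all 11510, and it was absent from the printed window of Fabp7.

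Among 10 genes of stress axis receptors and peptides, 1 was higher and 2 were lower at an unadjusted p under 0.05, against 3.91% and 1.63% of all genes. None passed after adjustment (limma). Nr3c1, the glucocorticoid receptor, was at 31.7, 37.1 and 44.9 TPM in control B6 mice and at 28.3, 29.7 and 31.8 TPM in stressed B6 mice, and at 30.5, 32.4 and 28.1 TPM in BALB/c controls and 21.9, 28.1 and 25.6 TPM in stressed BALB/c mice. The groups met at the edge, with B6 CRS replicate 14 and B6 control replicate 2 nearly level, and so did BALB/c CRS replicate 13 and BALB/c control replicate 10 (log2 change -0.29, SE 0.09). Nr3c2, the mineralocorticoid receptor, which binds the same hormones with higher affinity, had a log2 change of 0.45 (SE 0.19), and Crh, the releasing hormone of the axis, one of -0.39 (SE 0.15). In BALB/c CRS replicate 12 Nr3c2 was at 5.83 TPM, below all BALB/c controls (6.21 to 8.05 TPM), and in replicates 13 and 15 it was at 13.4 and 15.5 TPM.

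Most of the cell type and pathway lists had few members past an unadjusted p of 0.05. Apart from Fabp7, no member of these lists passed after adjustment on the main settings (limma). The 11 myelin markers had a median of -0.23, and 10 were lower in both strains, against 21.6% of all genes. None of these markers had an unadjusted p under 0.05. Without BALB/c CRS replicate 12 their median was -0.05 and 0 were lower in both, against 13.6% of all genes. Of 11 microglia markers 9 were lower in both, against 21.6% of all genes, with a median of -0.10. In this list 1 gene, C1qb, a complement subunit, was lower at an unadjusted p under 0.05, against 1.63% of all genes. The 9 excitatory neuron markers had a median of -0.32, from -0.44 in B6 and -0.11 in BALB/c, and none had an unadjusted p under 0.05. Of 10 inhibitory neuron markers, Gad1 and Gad2, the enzymes of GABA synthesis, were higher at an unadjusted p under 0.05 (log2 change 0.35 and 0.52), against 3.91% of all genes. The list median was 0.03, and Pvalb, the calcium-binding protein of fast-spiking cells, had a change of -0.56 (unadjusted p 0.0766, limma). Striatal neurons use the same GABA enzymes, and the median of the striatal markers was 1.21 in B6 and -0.42 in BALB/c. The part of striatal tissue in the values of Gad1 and Gad2 was not tested. With a striatal score as a covariate the log2 change of Fabp7 was 1.16 and that of Egr1 was -0.78. Some counts moved with the settings. Under median-of-ratios scaling 3 excitatory neuron markers and 2 of 15 astrocyte markers had an unadjusted p under 0.05, all lower, against 3.5% of all genes. Without BALB/c CRS replicate 12, 2 astrocyte markers were higher at that level, against 7.05% of all genes. In that setting 1 astrocyte marker and 2 microglia markers were lower, against 1.32% of all genes. The 9 oligodendrocyte precursor markers had a median of -0.08 and no member under an unadjusted p of 0.05.

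Of 9 choroid plexus and meningeal markers tested, 3 were higher and 1 lower at an unadjusted p under 0.05, against 3.91% and 1.63% of all genes. In both strains 6 were higher, against 34.3% of all genes, and the list median was 0.36 (0.15 in B6, 0.61 in BALB/c). The lower gene was Ttr, which encodes a thyroid hormone carrier made in choroid plexus (log2 change -1.32, SE 0.48). It was at 5.67, 33.2 and 55.1 TPM in control B6 mice and 6.87, 18.0 and 5.01 TPM in stressed B6 mice. In BALB/c, Ttr was at 11.4, 37.4 and 40.2 TPM in controls and 7.44, 13.3 and 8.60 TPM in CRS mice. Its controls alone spread over a wide range, and the groups overlapped in both strains. The other members with an unadjusted p under 0.05 were higher, namely Igf2 (0.70), Slc6a13 (0.58) and Clic6 (0.76), which are expressed in meninges or choroid plexus. By strain the change of Igf2 was 0.15 in B6 and 1.24 in BALB/c (unadjusted interaction p 0.0271, limma), that of Slc6a13 was 0.25 and 0.92, and that of Clic6 was 0.96 and 0.55. Clic6 was low in BALB/c, at 0.27, 0.56 and 0.13 TPM in controls and 0.04, 1.22 and 2.04 TPM in CRS mice, which overlap. Its B6 groups overlapped too, at 3.29, 2.26 and 0.22 TPM in controls and 7.3, 2.91 and 2.85 TPM in CRS mice. Of 16 clock genes, 1 was higher and 2 lower at an unadjusted p under 0.05, against 3.91% and 1.63% of all genes. Nr1d1, a transcriptional repressor, was higher (0.38), and Per2 (-0.32) and Per3 (-0.29), of the core feedback loop, were lower. Under median-of-ratios scaling 1 was higher and 5 lower (3.43% and 3.5% of all genes). Per3 had a change of -0.52 in B6 and -0.05 in BALB/c (unadjusted interaction p 0.0322, limma). The time of day at collection is not in the labels, and its part in these values was not tested. Ifitm3 (0.46), an antiviral membrane protein, and Ifit3b (-0.40), which shares near-identical sequence with Ifit3, went in opposite directions among 13 interferon-stimulated genes. The 17 cholesterol synthesis genes had none under an unadjusted p of 0.05, and 2, both lower, under median-of-ratios scaling (3.5% of all genes).

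**Figure D4:**
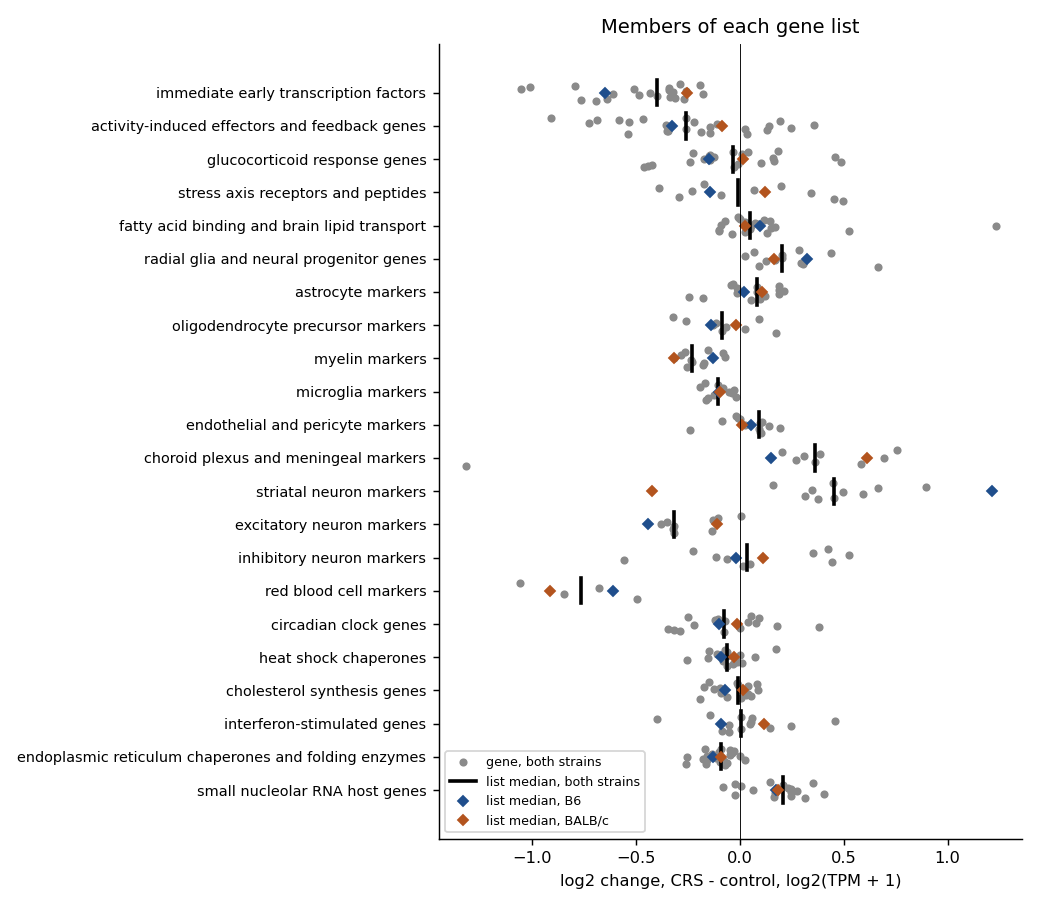
Log2 change after CRS on the log2(TPM + 1) scale for the tested members of 22 gene lists. Grey points are genes with strain as a term, black bars their medians, and diamonds the medians in B6 (blue) and BALB/c (orange); the immediate early genes have medians of -0.65 and -0.26, and the striatal markers of 1.21 and -0.42.

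A further 2 lists were drawn up after the values had been seen, so that their counts are descriptions of a chosen pattern. The first was prompted by Hspa5 (BiP), a main chaperone of the endoplasmic reticulum, which was lower without overlap in either strain. Hspa5 was at 163.6, 184.4 and 189.8 TPM in control B6 mice and at 157.1, 151.0 and 158.3 TPM in stressed B6 mice, and at 190.6, 171.4 and 185.5 TPM in BALB/c controls and 127.2, 158.3 and 157.1 TPM in stressed BALB/c mice. Its log2 change was -0.26 (SE 0.07, adjusted p 0.892, limma), or -0.20 without BALB/c CRS replicate 12. Hsp90b1 (GRP94), a chaperone of secreted proteins, was at 213.0 to 240.2 TPM in control B6 mice and 196.2 to 210.96 TPM in stressed B6 mice, and at 212.3 to 224.0 TPM and 178.0 to 204.8 TPM in the BALB/c groups. Manf, a secreted protein that binds Hspa5, had a log2 change of -0.18 and no overlap either, though its groups overlapped in at least 1 strain under median-of-ratios scaling. Of 22 chaperones and folding enzymes of this compartment, 16 were lower in both strains, against 21.6% of all genes, and the median was -0.09. An unadjusted p under 0.05 was found for 6, all lower, against 1.63% of all genes, with Sdf2l1, Calr and Pdia3 beside these 3. Without BALB/c CRS replicate 12, 11 were lower in both strains (13.6% of all genes) and the BALB/c median was -0.01. Leaving out a library cannot create overlap, so its absence in Hspa5, Hsp90b1 and Manf in that setting adds nothing. Among 15 heat shock chaperones of the other list, Hspa5 was the only one with an unadjusted p under 0.05. Under median-of-ratios scaling there were 3, all lower, against 3.5% of all genes.

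Many chaperone promoters carry the endoplasmic reticulum stress response element, CCAAT and CCACG separated by 9 bases, which is bound by NF-Y and ATF6. It was found on either strand in 8 of 20 promoters of the list (40.0%) and in 18 of 11510 of all tested genes (0.2%). Hspa5 and Hsp90b1 are shown because they are the 2 of the 20 lower genes without overlap that hold it, with the CCAAT and CCACG parts, or their reverse complements, in capitals. The Hspa5 window (chr2:34771840-34772089, plus strand, GRCm38.p6) has 1 match and the Hsp90b1 window (chr10:86705445-86705694, minus strand) has 2. The GENCODE M21 start of Hspa5, 34771970, falls inside its window.
Hspa5 promoter: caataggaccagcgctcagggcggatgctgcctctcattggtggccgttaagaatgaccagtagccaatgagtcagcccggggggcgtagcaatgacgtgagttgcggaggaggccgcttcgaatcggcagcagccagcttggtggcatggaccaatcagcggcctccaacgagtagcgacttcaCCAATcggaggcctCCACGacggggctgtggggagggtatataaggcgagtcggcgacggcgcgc
Hsp90b1 promoter: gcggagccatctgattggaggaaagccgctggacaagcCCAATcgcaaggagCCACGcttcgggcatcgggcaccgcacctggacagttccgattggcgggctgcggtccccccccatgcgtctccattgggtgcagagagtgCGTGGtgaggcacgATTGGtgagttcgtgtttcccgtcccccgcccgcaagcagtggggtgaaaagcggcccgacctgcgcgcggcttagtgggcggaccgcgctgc

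The second list held host genes of small nucleolar RNAs, whose introns give rise to guides of ribosomal RNA modification. Of 17 tested, 10 were higher in both strains, against 34.3% of all genes, 5 had an unadjusted p under 0.05 (Snhg1, Snhg3, Snhg5, Snhg12 and Snhg17, all higher), against 3.91% of all genes, and the median was 0.21. Snhg5 was at 12.2, 8.36 and 8.24 TPM in control B6 mice and 12.3, 16.8 and 14.0 TPM in stressed B6 mice, and at 10.7, 11.5 and 9.98 TPM in BALB/c controls and at 12.6, 14.6 and 12.3 TPM in stressed BALB/c mice. Its B6 groups almost touched, and its log2 change was 0.41 (SE 0.12, adjusted p 0.892, limma). Snhg5, Snhg12 and Snhg17 had no overlap in either strain on the TPM scale, but under median-of-ratios scaling 0 of the 17 lacked overlap in both strains, with 4 still under an unadjusted p of 0.05 and a median of 0.18. The plot of the members by strain shows that Snhg9 (-0.47 in B6, 1.1 in BALB/c) and Snhg16 (-0.13 and 0.59) went in opposite directions in the strains. So did Snhg14 (-0.33 and 0.35), Snhg6 (-0.16 and 0.11), Snhg11 (-0.11 and 0.06) and Snhg18 (-0.06 and 0.19).

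**Figure D5:**
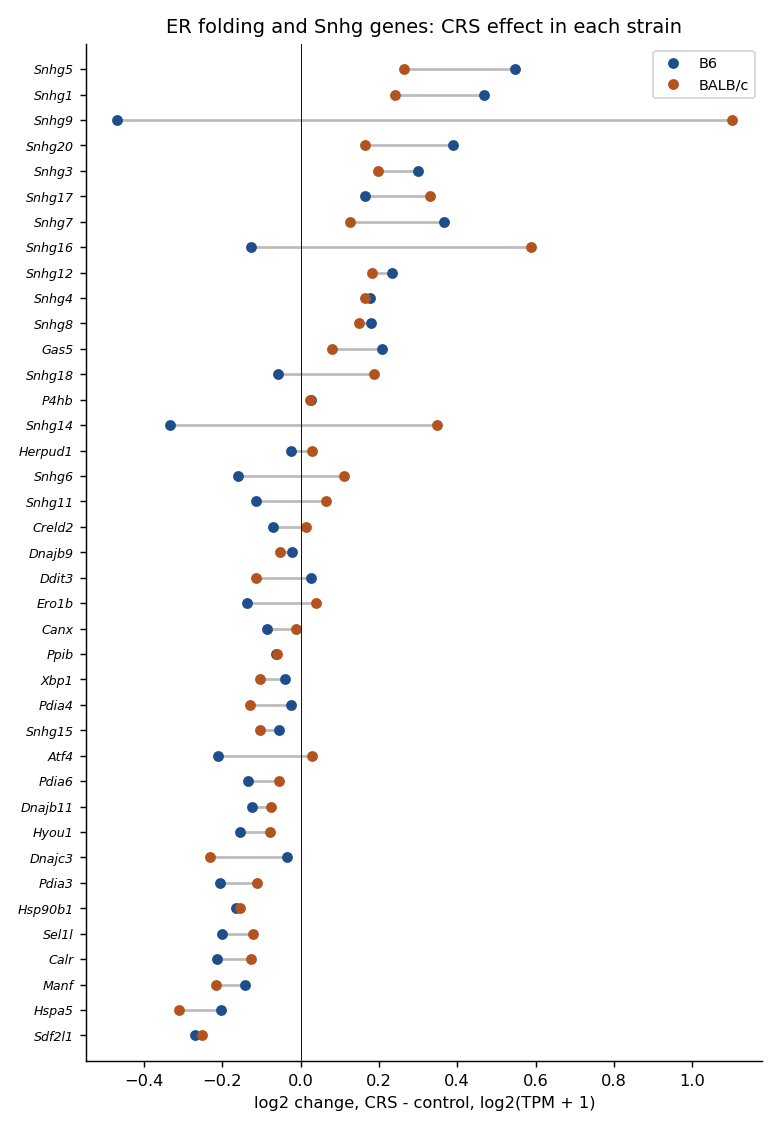
Log2 change after CRS, on the log2(TPM + 1) scale, of 22 endoplasmic reticulum folding genes and 17 small nucleolar RNA host genes in B6 (blue) and BALB/c (orange), with a line joining the strains, ordered by the change with strain as a term. Hspa5 and Sdf2l1 lie lowest (-0.26 each with strain as a term) and Snhg5 highest (0.41).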

How the data were processed

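RNA from a 1.5 mm punch of medial prefrontal cortex of 12 mice was sequenced as stranded poly(A) libraries, per the labels' protocols. The authors deposited TPM in a table of 147902 rows with 55678 gene names; the unit was read from non-integer columns that each sum to 1000000. Salmon, cutadapt 2.9 and GRCm38 are listed in the submitters' processing notes. Library depth is therefore unknown. TPM was summed per gene name. Genes at 1 TPM or more in at least 3 libraries were tested on log2(TPM + 1), which understates changes of low genes, with limma 3.58.1 (lmFit, eBayes with trend, R 4.3.3), strain and treatment as terms (9 residual degrees of freedom). A fit of 4 group means (8 degrees of freedom) gave effects by strain and their difference. P-values were adjusted by Benjamini-Hochberg over all tested genes, and the fits were tested on simulated data.

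The members and lists were chosen with earlier results of these data known. Genes were named if called, if among the 12 of lowest p per direction without overlap in both strains (mean log2 of at least 1, no predicted-gene symbol), or if among the 4 of lowest p in a list; others are named as chosen after their values were seen, and 1 gene that the rule names is not reported here. Groups came from the sample titles, and p-values measure the spread between these mice. Gene positions and overlaps came from GENCODE M21, promoters from RefSeq, and near-identical genes from blastn 2.17.0. Alternatives covered pseudocount, filter, scaling, the model, tissue covariates, a replicate block and each library left out. The animal numbers 9, 12 and 13 occur in both strains; they name different mice, and their deviations correlated at -0.24, -0.03 and -0.04.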

Additional observations from a re-analysis of the deposited data

How the results depend on the processing

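The number of genes called with strain as a term was 1 on the main settings. It was 0 with no filter on low values, and 2 (Fabp7 and Egr1) when tested genes averaged at least 5 TPM, under median-of-ratios scaling, after rescaling without mitochondrial genes, Bc1 and 18S RNA, with robust variance estimates, and with a replicate block. The replicate block, a random effect for animal numbers that mark different mice, gave adjusted p 0.0314 for Egr1 and 0.0055 for Fabp7 (limma) at an estimated correlation of -0.117. Leaving out each library gave 0 to 2 calls: 0 without BALB/c control replicate 5 or BALB/c CRS replicate 15, and 2 without B6 control replicate 3 (Fabp7 and Gm43547) or BALB/c CRS replicate 13 (Fabp7 and Egr1). The test in both strains called 0 genes under every alternative run. The 95 genes without overlap became 56 at an average of at least 5 TPM, 142 (85 higher, 57 lower) after that rescaling, 137 under median-of-ratios scaling, and 138 to 313 with a library left out, the highest without BALB/c CRS replicate 12. The interaction called 2 genes with no filter, 1 with a striatal score as a covariate, and 0 to 2 with a library left out (2 without B6 control replicate 2). Among named genes, the log2 change turned sign for Cldn11 (from -0.61 to 0.049 over the libraries left out), above 0 without BALB/c control replicate 9, and for Tac1 (from -0.0059 to 0.61), below 0 without B6 control replicate 9. Neither passed the test. The causes were not tested. Since TPM keeps no depth, no limit of detection can be given.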

Other observations

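Gm23238, a small nuclear RNA gene at chr19:18732741-18732904 (GRCm38, plus strand), was higher by a log2 change of 3.15, with an SE of 0.74 and an adjusted p of 0.892 (limma). It was listed at 9.36, 0 and 0 TPM in control B6 mice and at 9.71, 19.5 and 41.6 TPM in stressed B6 mice, and at 9.28, 7.82 and 0 TPM in BALB/c controls and at 87.7, 44.6 and 11.4 TPM in stressed BALB/c mice. The groups did not overlap in either strain, though the lowest CRS library and the highest control of B6 lay close. Near-identical copies, Rnu1a1 among them, share its sequence, and its transcripts carry no poly(A) tail, so its own level is uncertain.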
